A study of Anser cygnoides with 6 samples.

Results

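The laminin chains and the proteins that link laminin to the rest of the basement membrane were followed in the ovary of the swan goose, Anser cygnoides. The 10 genes were chosen by symbol: the laminin chain genes LAMA1, LAMA2, LAMA4, LAMA5, LAMB1 and LAMC1, the nidogen genes NID1 and NID2, and HSPG2 and AGRN, which encode perlecan and agrin. All 10 were found among the 14696 genes of the deposited table, 6 by the symbol given there and 4 (NID1, NID2, HSPG2 and AGRN) through their gene identifier. The series holds 3 RNA-seq libraries of broody and 3 of reproductive ovary (the series' design text speaks of oviduct, the title and every sample of ovary). The comparison asked how ovarian transcripts differ between these stages. All geese were 40 weeks old and kept indoors on a cycle of 11 h light to 13 h dark. Reproductive ovaries came from geese in the stage of reproduction. Broody ovaries came from geese in the stage of broodiness, brought on by forced moulting and short illumination, so that stage, moulting and any difference in light cannot be told apart. Neither the part of the ovary nor whether each library came from its own bird is given in the labels, so p-values measure the spread among these libraries, which may be technical.

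A basement membrane is a thin sheet of extracellular matrix under epithelia and around muscle cells, fat cells, nerves and vessels. Its first layer is a network of laminin, a cross-shaped trimer of an alpha, a beta and a gamma chain, in which the alpha chain carries most of the sites for cell receptors. Nidogens, perlecan and agrin tie this network to a second network of collagen IV and to the cell surface. In the ovary such a sheet encloses each follicle between the granulosa cells inside and the theca outside, and others surround vessels and smooth muscle.

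Values are FPKM (sequenced fragments divided by transcript length in kilobases and by the size of the library); the authors deposited them per transcript, and they were summed per gene here. The FPKM of a library added up to between 319866 and 346625, and the depth of the libraries is unknown. Differences are of log2(FPKM + 1), broody minus reproductive, a scale that understates the change of genes at low FPKM. They were tested with limma over the 11377 genes with at least 1 FPKM in 3 or more libraries, and called at a Benjamini-Hochberg adjusted p under 0.05. All 10 members passed the filter on low values. Across the tested genes, Pearson's r between libraries was 0.972 to 0.980 within the broody group and 0.944 to 0.968 within the reproductive group. Between groups it was 0.811 to 0.859 for pairs with reproductive 2 and 0.898 to 0.947 for the others, so reproductive 2 stood farthest from the broody libraries and broody 3 nearest to the reproductive ones. These r values run across genes, which are no independent replicates, and serve as a description. All oocyte markers found, and all granulosa markers found except INHA, were above 0 FPKM in every library. Of 14 oviduct markers 2 were found: MUC5AC, a mucin, stayed under 0.0505 FPKM, and TF, a transferrin that the liver also makes, had 71.1 FPKM in reproductive 2 and at most 4.79 FPKM elsewhere and did not pass the test (adjusted p = 0.274).

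The broody ovaries had more transcript of the laminin alpha 1 chain and of agrin, and less of the laminin alpha 4 and beta 1 chains, of nidogen 1 and of perlecan. The call of agrin was the least stable. It ended in 9 of 18 alternative settings, against 3 for each other gene called. The mean of LAMA1 was 2.31 times as high in broody as in reproductive libraries and that of AGRN 1.63 times, while LAMA4, HSPG2, LAMB1 and NID1 were 3.24, 2.95, 2.59 and 2.56 times as high in reproductive libraries. LAMA2, LAMA5, LAMC1 and NID2 did not pass the test. Of the 10 members 6 were thus called, 4 lower and 2 higher, where 41.9% of all tested genes were called, 12.0% as lower and 29.9% as higher. The FPKM of the groups did not overlap for the same 6 members, against 59.5% of all tested genes. The median difference of the members was -0.74, against 0.23 for all tested genes.

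**Figure D1:**
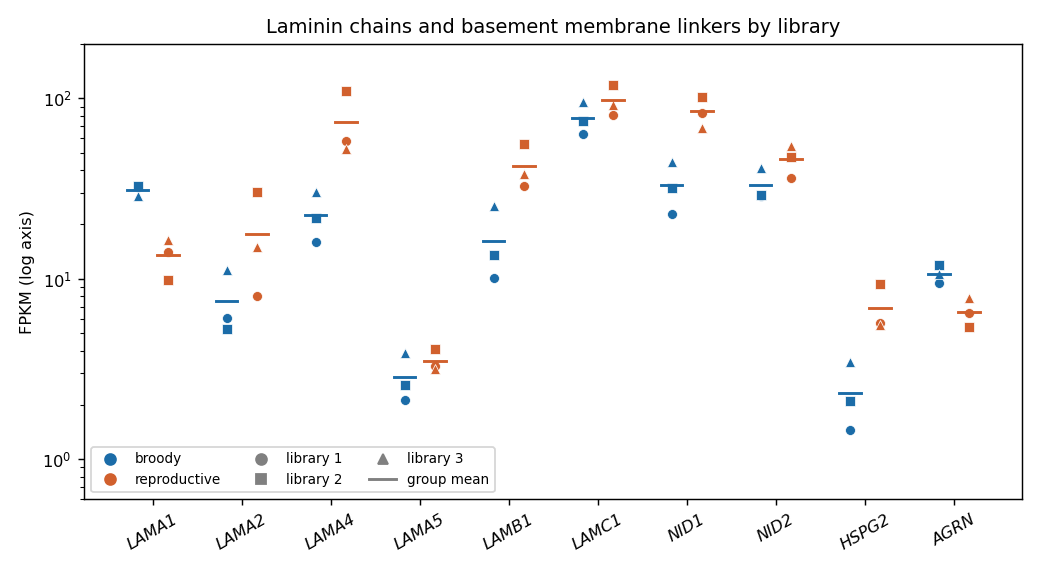
FPKM (log axis) of the 10 genes in each library, broody in blue and reproductive in orange, with the symbol giving the library number and the bar the group mean. LAMA1 and AGRN lie higher in the 3 broody libraries, LAMA4, LAMB1, NID1 and HSPG2 lie higher in the 3 reproductive libraries, and the groups overlap for the other 4 genes.

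Adjusted p of the 6 called members lay between 0.0138 and 0.0260. Without broody 1 none of them was called (adjusted p = 0.0634 to 0.0710), nor without broody 2 (adjusted p = 0.0663 to 0.0940). In each of these fits 1 gene of all tested was called (0.00879%). All 6 had an unadjusted p under 0.05 in both fits. So did 4571 of the 11377 tested genes without broody 1 and 4686 without broody 2. In bulk tissue, fewer cells of a type and less RNA per cell cannot be told apart. With median-ratio scaling, a rescaling of each library by its median ratio to a mean library that brings the median difference of all tested genes from 0.23 to 0.00, the members were 1 higher (LAMA1) and 5 lower (the 4 above and NID2), and of all tested genes 16.7% were called higher and 18.8% lower. With upper-quartile scaling LAMA1 was again the only member higher, where 15.6% of all tested genes were higher and 19.2% lower.

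**Figure D2:**
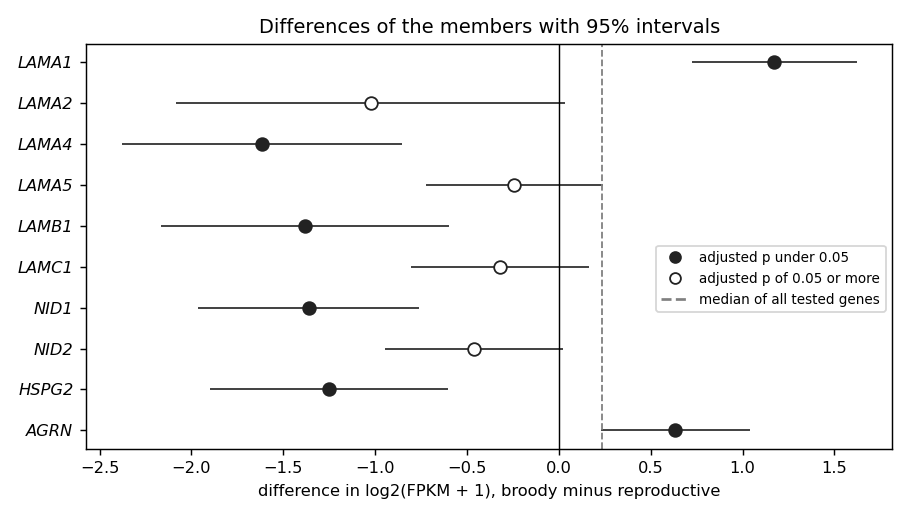
Difference in log2(FPKM + 1), broody minus reproductive, for each gene (points) with its 95% interval from limma (lines). Filled points passed the test, and the dashed line is the median of all tested genes, 0.23. LAMA1 and AGRN lie to the right of 0, and the 8 other genes lie to its left.

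The alpha chains set the laminin trimers apart from each other, and here they moved in opposite directions. LAMA1 (106034951) encodes the alpha 1 chain, known in mammals as the chain of the earliest embryonic basement membranes and of some epithelia. It stood at 32.1, 32.5 and 28.6 FPKM in broody 1 to 3 and at 14.1, 9.90 and 16.3 FPKM in reproductive 1 to 3. The lowest broody library was thus well above the highest reproductive one, and the broody libraries lay close together. LAMA1 rose by 1.17 ± 0.19 (SE) on the log2 scale, from 13.5 ± 3.28 to 31.1 ± 2.12 FPKM (SD, n = 3; limma adjusted p = 0.0138). Of all tested genes 6.10% had a larger difference. The rise was 0.93 with median-ratio scaling (adjusted p = 0.0121) and 0.98 without reproductive 2 (adjusted p = 0.0123).

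LAMA4 (106032574) encodes the alpha 4 chain, which is known from vessel walls, smooth muscle and fat. It had 16.0, 21.8 and 30.3 FPKM in the broody libraries and 58.2, 110.1 and 52.3 FPKM in the reproductive libraries. Reproductive 2 was the highest of all, and broody 3 the nearest to the reproductive group without reaching it. LAMA4 fell by 1.62 ± 0.32 (SE) on the log2 scale, from 73.5 ± 31.8 to 22.7 ± 7.17 FPKM (SD, n = 3; limma adjusted p = 0.0172), the largest difference in size among the 10 genes. Of all tested genes 1.55% had a more negative difference. The difference was -1.29 without reproductive 2 (adjusted p = 0.0157) and -1.87 with median-ratio scaling (adjusted p = 0.0161).

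Set side by side within each library, a measure that the scaling of the libraries cannot move, the leading alpha chain changed between the stages. LAMA1 held 57.1%, 52.3% and 38.8% of the summed FPKM of LAMA1, LAMA2, LAMA4 and LAMA5 in broody 1 to 3, and 16.9%, 6.42% and 18.8% in reproductive 1 to 3. LAMA4 held 28.4%, 35.1% and 40.9% in the broody and 69.6%, 71.3% and 60.2% in the reproductive libraries. LAMA1 was the first of the 4 chains in broody 1 and 2, was slightly below LAMA4 in broody 3, and was far below LAMA4 in the reproductive libraries. The ratio of LAMA1 to LAMA4 was 2.01, 1.49 and 0.947 in the broody libraries and 0.243, 0.0900 and 0.313 in the reproductive libraries. As neither gene overlapped between the groups and they moved in opposite directions, this ratio could not overlap either. The 4 chains together came to 56.3 to 73.9 FPKM in broody and 83.6 to 154 FPKM in reproductive libraries, so a larger share went with a smaller sum. With LAMA3, an alpha chain outside the 10 members that is known from epithelia, added to the sum, the LAMA1 share averaged 38.3% ± 6.73 in broody and 12.0% ± 5.34 in reproductive libraries (SD, n = 3).

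**Figure D3:**
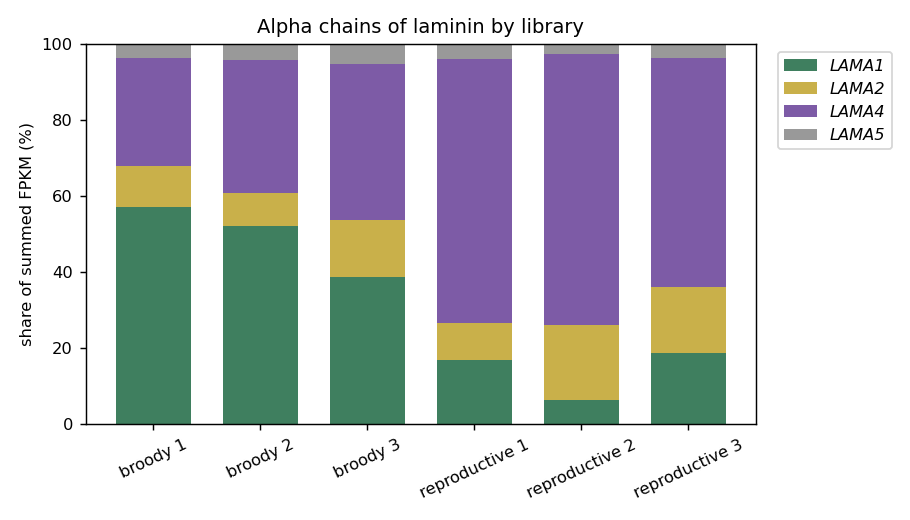
Share of each alpha chain gene in the summed FPKM of LAMA1, LAMA2, LAMA4 and LAMA5 (%), 1 bar per library. LAMA1 takes 38.8 to 57.1% of the broody bars and 6.42 to 18.8% of the reproductive bars, and LAMA4 the larger part of the reproductive bars.

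LAMA2 (106032489), whose alpha 2 chain surrounds muscle fibres and nerve sheaths, was the least even of the 10 genes among the reproductive libraries, with a coefficient of variation of 63.9%. It stood at 6.05, 5.28 and 11.1 FPKM in broody and 8.04, 30.2 and 15.0 FPKM in reproductive libraries, and broody 3 exceeded reproductive 1. Its difference of -1.03 ± 0.45 (SE) did not pass (adjusted p = 0.0995), with a 95% interval from -2.08 to 0.03. The difference shrank to -0.57 without reproductive 2 (adjusted p = 0.239), and without reproductive 1 it was -1.46 and passed (adjusted p = 0.0417). With the top transcript, listed at 0 in 3 libraries, in place of the gene sum it was -1.57 and did not pass (adjusted p = 0.441). LAMA5 (106040794), the alpha 5 chain of adult epithelia and vessels, was low throughout, with 2.12, 2.58 and 3.87 FPKM in broody and 3.27, 4.07 and 3.16 FPKM in reproductive libraries. The groups overlapped, and the difference of -0.24 ± 0.20 (SE) did not pass (adjusted p = 0.355; 95% interval from -0.72 to 0.23). An increase of the size of LAMA1 lay outside that interval.

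The table holds 5 transcripts of LAMA2, 2 of LAMA4 and 1 of each of the 8 other members. Of the LAMA2 transcripts 2 were listed at 0 in all libraries, and the FPKM of the other 3, called A, B and C here, did not fall into the groups. Transcript A was listed at 0 in broody 1, broody 2 and reproductive 1, and at 11.1, 30.2 and 9.19 FPKM in broody 3, reproductive 2 and reproductive 3. Transcript B was present in just the 3 libraries where A was listed at 0, at 3.07, 2.34 and 4.89 FPKM. Transcript C stood at 2.98, 2.94 and 3.16 FPKM in those same 3 libraries, at 5.82 FPKM in reproductive 3, at 0.0170 FPKM in reproductive 2 and at 0 in broody 3. The LAMA2 transcripts listed above 0 thus differed between libraries of 1 group. Whether this came from transcript use or from the assignment of reads by the authors' quantifier was not tested. The 2 highest gene sums within the reproductive group were those with transcript A. LAMA4 was almost wholly 1 transcript, which held at least 99.8% of its FPKM in every library. In a fit over the 15191 transcripts tested, 3 of the 12 member transcripts tested were called, that of LAMA1 as higher and those of NID1 and the main one of LAMA4 as lower, where 11.4% of all transcripts were called, 7.09% as higher and 4.29% as lower. None of the 3 was called without broody 1, 2 or 3 or without reproductive 1, and of the 3 only LAMA1 without reproductive 2. Over all transcripts 0.329%, 0.296%, 1.51%, 0.79% and 3.64% were called in these fits, in that order.

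**Figure D4:**
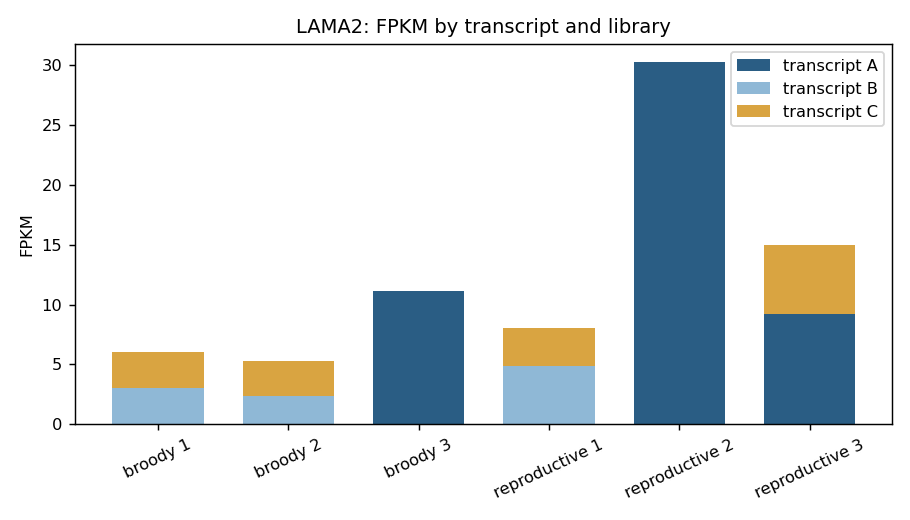
FPKM of the 3 LAMA2 transcripts with values above 0, stacked per library. Broody 1, broody 2 and reproductive 1 are made of transcripts B and C, while transcript A makes up broody 3 and nearly all of reproductive 2.

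The beta 1 and gamma 1 chains are shared by most laminins, and of this pair LAMB1 fell. LAMB1 (106042002) had 10.1, 13.5 and 25.2 FPKM in broody and 32.8, 55.9 and 37.9 FPKM in reproductive libraries. The groups did not overlap, but broody 3 had 2.50 times the FPKM of broody 1 and lay near reproductive 1. LAMB1 fell by 1.38 ± 0.33 (SE) on the log2 scale, from 42.2 ± 12.1 to 16.3 ± 7.94 FPKM (SD, n = 3; limma adjusted p = 0.0205), and by 1.16 without reproductive 2 (adjusted p = 0.0400). LAMC1 (106042469) was the most abundant of the 10 genes in both groups. It had 63.7, 74.5 and 95.1 FPKM in broody and 80.9, 119 and 92.1 FPKM in reproductive libraries, and the groups overlapped. Its difference of -0.32 ± 0.21 (SE) did not pass (adjusted p = 0.231), with a 95% interval from -0.80 to 0.16. The interval of LAMB1, from -2.16 to -0.60, overlapped that of LAMC1, and that of LAMA4 ran from -2.37 to -0.86. The genes were not tested against each other.

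Relative to LAMC1, LAMB1 and LAMA1 differed between the groups in opposite directions. The ratio of LAMB1 to LAMC1 was 0.158, 0.182 and 0.265 in broody and 0.405, 0.469 and 0.412 in reproductive libraries. The ratio of LAMA1 to LAMC1 was 0.505, 0.436 and 0.301 against 0.175, 0.0832 and 0.178. Neither ratio overlapped between the groups. LAMB1 made up 74.1 to 90.0% of the summed FPKM of the 4 beta chain genes. Of the other laminin chains, LAMB2, the beta 2 chain, averaged 2.35 ± 0.728 FPKM in the broody and 4.62 ± 2.37 in the reproductive libraries (SD, n = 3; adjusted p = 0.0999), and LAMA3 had 18.1 ± 1.51 against 14.7 ± 2.01 FPKM (adjusted p = 0.150). LAMC3 stayed under 1.05 FPKM and, like LAMB3 and LAMB4, was not tested.

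Nidogens are rod-shaped proteins that bind the laminin gamma 1 chain at their end and collagen IV along their length. NID1 (106048842) had 22.9, 31.8 and 44.3 FPKM in broody and 83.0, 102 and 68.5 FPKM in reproductive libraries. The lowest reproductive library was well above broody 3, the highest broody one. NID1 fell by 1.36 ± 0.25 (SE) on the log2 scale, from 84.6 ± 16.9 to 33.0 ± 10.7 FPKM (SD, n = 3; limma adjusted p = 0.0166), and by 1.22 without reproductive 2 (adjusted p = 0.0200). NID2 (106044018) had 28.7, 29.3 and 41.2 FPKM in broody and 36.1, 47.5 and 54.4 FPKM in reproductive libraries, and broody 3 exceeded reproductive 1. Its difference of -0.46 ± 0.21 (SE) did not pass (adjusted p = 0.102; 95% interval from -0.94 to 0.02), whereas under quantile, median-ratio and upper-quartile scaling it was -0.71 to -0.73 and passed (adjusted p = 0.0320 to 0.0327).

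The nidogens stood at nearly the same level in the broody ovaries, and NID1 led in the reproductive ones. The ratio of NID1 to NID2 was 0.797, 1.09 and 1.08 in broody and 2.30, 2.15 and 1.26 in reproductive libraries. The groups did not overlap, with reproductive 3 nearest to the broody values. The sum of the nidogens came to 0.811 to 0.898 of LAMC1 in the broody libraries and 1.26 to 1.47 in the reproductive ones.

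Perlecan and agrin are large proteoglycans that carry heparan sulfate and bind laminin on one side and dystroglycan on the cell surface on the other. Perlecan is abundant around vessels and muscle, and agrin is best known for clustering acetylcholine receptors at the nerve-muscle synapse. HSPG2 (106048619) had 1.46, 2.10 and 3.44 FPKM in broody and 5.72, 9.38 and 5.54 FPKM in reproductive libraries, with no overlap. It fell by 1.25 ± 0.28 (SE) on the log2 scale, from 6.88 ± 2.17 to 2.33 ± 1.01 FPKM (SD, n = 3; limma adjusted p = 0.0182), and by 1.04 without reproductive 2 (adjusted p = 0.0278).

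AGRN (106044274) went the other way, with 9.49, 11.9 and 10.6 FPKM in broody and 6.47, 5.42 and 7.81 FPKM in reproductive libraries. The groups did not overlap, but the gap between broody 1 and reproductive 3 was small. AGRN rose by 0.63 ± 0.17 (SE) on the log2 scale, from 6.57 ± 1.20 to 10.7 ± 1.22 FPKM (SD, n = 3; limma adjusted p = 0.0260), and 24.8% of all tested genes had a larger difference. This call ended with median-ratio scaling (0.41, adjusted p = 0.0677) and upper-quartile scaling (0.39, adjusted p = 0.0735). It also ended without broody 3 (adjusted p = 0.0644), without reproductive 1 (adjusted p = 0.0568) and without reproductive 2 (adjusted p = 0.0507). Within each library, the ratio of AGRN to HSPG2 was 6.51, 5.68 and 3.09 in broody and 1.13, 0.578 and 1.41 in reproductive libraries. The transcript of agrin was thus above that of perlecan by several times in each broody library. The 2 transcripts were nearer to each other in the reproductive libraries, with AGRN below HSPG2 in reproductive 2. As neither gene overlapped between the groups and they moved in opposite directions, this ratio could not overlap either.

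Ordered by FPKM, a scale per length, LAMC1 led in both groups (overlapping with NID1 in the reproductive group) and LAMA5, HSPG2 and, in the reproductive group, AGRN closed the list. In the broody libraries NID2, NID1, LAMA1, LAMA4 and LAMB1 followed LAMC1, with means from 33.1 down to 16.3 FPKM, and each overlapped its neighbour in that order. AGRN and LAMA2 came next, at 10.7 and 7.48 FPKM. In the reproductive libraries NID1, LAMA4, NID2 and LAMB1 followed LAMC1, with means from 84.6 down to 42.2 FPKM and overlap between neighbours. LAMA2 and LAMA1 came next, at 17.8 and 13.5 FPKM. LAMA1 thus moved from the seventh place of the 10 in the reproductive to the fourth in the broody group, and LAMA4 from the third to the fifth.

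The members also varied within the groups. Broody 3 was the highest broody library for all 8 members with a negative difference, and reproductive 2 was the highest reproductive library for 7 of these 8. Across all tested genes, too, broody 3 was nearest to the reproductive libraries and reproductive 2 farthest from the broody ones. How many of all tested genes share this order was not counted, so it is not shown to be particular to the members. Reproductive 2 was also the lowest reproductive library for LAMA1 and AGRN. The coefficient of variation among broody libraries was 6.83% for LAMA1 and 11.4% for AGRN, and between 20.6% for LAMC1 and 48.7% for LAMB1 for the other members. By the root mean square difference between profiles of log2(FPKM + 1) over the 6 libraries, each centred on its own mean, NID1 and HSPG2 were the closest pair after LAMA5 and LAMC1, at 0.12 against 0.10. LAMB1 and LAMA4 were each nearest to HSPG2, at 0.15 and 0.22. LAMA1 and AGRN, the only members with a positive difference, were nearest to each other, at 0.30. The distance includes the difference between the groups, so this pairing is no separate result.

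Markers of several cell types differed between the groups beside these genes. Over all tested genes 12.0% were called lower and 29.9% higher, and 1 gene was called in each fit without broody 1 or broody 2. All 7 tested smooth muscle markers, such as MYH11 and ACTA2, were lower in broody libraries, and their summed FPKM was 296 to 925 in the broody libraries and 3092 to 6864 in the reproductive ones. Broody 3 and reproductive 2, the libraries with the highest smooth muscle sum of their groups, were the same that stood out for the members above. This was not particular to smooth muscle, as both were also highest of their groups for the macrophage and the theca and stroma sums. For theca and stroma, reproductive 1 was nearly level with reproductive 2, at 2004 against 2005 FPKM. Macrophage markers were lower for 8 of 8 genes, with sums of 223 to 391 against 528 to 1026 FPKM. Of 9 theca and stroma markers 4 were lower and 1 higher, with sums of 399 to 825 against 1697 to 2005 FPKM. COL3A1, a collagen gene, had the largest mean of them in the reproductive libraries, at 1006 FPKM, and weighs most in those sums. The other 4, CYP17A1, PDGFRA, PDGFRB and TCF21, were not called (adjusted p = 0.742, 0.0593, 0.0791 and 0.0555). These genes were named after their values were seen. Of 9 endothelial markers 7 were lower and 1, EMCN, was higher, with overlapping sums of 256 to 315 and 271 to 290 FPKM. Without EMCN, which was left out after its values were seen, the endothelial sums were 82.4 to 108 FPKM in broody and 171 to 229 FPKM in reproductive libraries and did not overlap. Broody 3 and reproductive 2 were the highest of their groups for the sums without EMCN. With EMCN broody 2 was the highest broody library, at 315 FPKM against 288 FPKM in broody 3.

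Oocyte markers were higher for 8 of 8 genes, where 29.9% of all tested genes were higher. Their sums were 1519 to 1870 FPKM in broody and 180 to 858 FPKM in reproductive libraries. Granulosa markers were higher for 3 of 7 genes and lower for 1, with sums of 394 to 500 against 128 to 245 FPKM. Reproductive 2, the lowest reproductive library for LAMA1 and AGRN, was also the lowest of its group for both sums. In the broody group the lowest was broody 2 for the oocyte sum, broody 1 for the granulosa sum and AGRN, and broody 3 for LAMA1. Of 2 surface epithelium markers tested, EPCAM was higher, and neither of 2 Schwann cell markers was called. Of 7 red blood cell markers 1 was found, and it was not tested. No marker of these lists that was found was at 0 in all libraries. The part of these cell types in the differences of the laminin and linker genes was not tested.

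Of 103 genes that work with laminin (partner genes), listed by role, 91 were found and 83 tested, and 23 were lower and 11 higher in broody libraries, or 28 and 8 with median-ratio scaling. The share called, 41.0%, was near the 41.9% of all tested genes. Of the calls 32.4% were higher, or 22.2% with that scaling, against 71.3% and 47.0% of the calls over all genes, and the median difference was -0.15 against 0.23. None was called without broody 1 or without broody 2. An unadjusted p under 0.05 was then reached by 14 higher and 20 lower partner genes and by 13 higher and 24 lower ones, respectively. Of all 11377 tested genes 4571 and 4686 reached it in these fits, so the partner counts were near the background.

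Among the collagens of the basement membrane 4 of 8 were lower and 2 higher, with a median difference of -0.60 (2 lower without reproductive 1, and 1 higher without broody 3). This was 50% lower and 25% higher, against 12.0% and 29.9% of all tested genes. COL4A1 and COL4A2, the chains of the common collagen IV network, had differences of -1.77 ± 0.40 and -1.60 ± 0.40 (SE). COL4A1 had 21.5, 27.7 and 45.0 FPKM in broody and 156, 128 and 57.7 FPKM in reproductive libraries. The groups did not overlap, and reproductive 3 was near broody 3. COL4A3 and COL4A4, chains of a second network known from the kidney filter of mammals, rose by 1.11 ± 0.24 and 1.09 ± 0.26. No other collagen of this list was called higher. COL4A5 had a difference of -0.29 ± 0.23 and did not pass (adjusted p = 0.335). COL4A4 and COL4A5 were named after their values were seen. COL4A3 measured 17.5, 17.7 and 14.7 FPKM in broody and 7.24, 4.87 and 10.1 FPKM in reproductive libraries. COL15A1, a collagen of the outer side of the basement membrane, fell by 2.02 ± 0.38. COL4A1, COL4A2, COL4A3, COL4A4 and COL15A1 had adjusted p values from 0.0166 to 0.0216. COL4A2 missed the threshold without reproductive 1 (adjusted p = 0.0570) and COL4A4 without broody 3 (adjusted p = 0.0509).

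Among the receptors of laminin and agrin 2 of 12 were lower and 2 higher, with a median of 0.12 (-0.06 with median-ratio scaling, which gave 3 lower and 2 higher). This was 16.7% lower and 16.7% higher, against 12.0% and 29.9% of all tested genes. ITGB1, the beta 1 subunit shared by most laminin-binding integrins, had 161, 198 and 198 FPKM in broody and 335, 391 and 270 FPKM in reproductive libraries. It fell by 0.82 ± 0.19 (SE; adjusted p = 0.0194), and ITGA1, the alpha subunit of an integrin for collagen IV and laminin, fell by 1.11 ± 0.21 (adjusted p = 0.0167). Neither ITGB1 nor ITGA1 overlapped between the groups. DAG1, dystroglycan, the receptor to which laminin, perlecan and agrin bind through its sugar chain, had 22.3, 20.2 and 20.7 FPKM in broody and 11.7, 9.31 and 12.9 FPKM in reproductive libraries. It rose by 0.85 ± 0.15 (SE; adjusted p = 0.0158), and LRP4, the receptor of agrin at the nerve-muscle synapse, rose by 0.83 ± 0.17 (adjusted p = 0.0178). For LRP4 the top transcript alone gave 1.87 and missed the threshold (adjusted p = 0.133). ITGA6, the alpha 6 subunit of epithelial laminin receptors, had 32.1 ± 3.13 against 26.1 ± 3.30 FPKM (SD, n = 3) and did not pass (difference 0.29 ± 0.15, adjusted p = 0.143).

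Inside the cell, dystroglycan is tied to dystrophin. Of 12 genes of that complex 4 were lower and 0 higher, with a median of -0.45 (6 lower with median-ratio scaling). This was 33.3% lower and 0% higher, against 12.0% and 29.9% of all tested genes. The lower genes numbered 2 without broody 3, without reproductive 1, without reproductive 2 or with the top transcript, and 1 with no filter on low values. By an unadjusted p under 0.05 no gene of the complex was higher either and 5 were lower. That rule was met by 6124 of all 11377 tested genes in either direction. SSPN, sarcospan, fell by 1.30 ± 0.29 (SE; adjusted p = 0.0184), and SGCD, delta-sarcoglycan, fell by 0.51 ± 0.17 (adjusted p = 0.0432). The call of SGCD ended without broody 3 (adjusted p = 0.106), without reproductive 2 (adjusted p = 0.0909) and without reproductive 3 (adjusted p = 0.0689). DMD, dystrophin itself, had 34.7 ± 2.60 against 37.5 ± 5.90 FPKM (SD, n = 3), a difference of -0.10 ± 0.15 that did not pass (adjusted p = 0.636). Of the 7 tested enzymes that build the laminin-binding sugar chain of dystroglycan, 1 was lower and 1 higher (14.3% each, against 12.0% and 29.9%). B3GALNT2 fell by 0.55 ± 0.13 (adjusted p = 0.0189, or 0.0510 without broody 3), and POMGNT2 rose by 0.57 ± 0.19 from a low level of 0.856 FPKM. The call of POMGNT2 ended in most alternatives, among them median-ratio scaling (adjusted p = 0.0932) and each fit without a reproductive library (adjusted p = 0.0577 to 0.111). It held only without broody 3, with no filter on low values, without a mean-variance trend and with array weights. POMT1, which starts the chain, had a difference of 0.39 ± 0.16 and did not pass (adjusted p = 0.0782).

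Of 24 tested enzymes of heparan sulfate, the chain that perlecan and agrin carry, 25% were called (41.9% of all genes): 4 were higher and 2 lower, with a median of 0.16, and with median-ratio scaling 2 were higher and 4 lower, with a median of -0.07. Without broody 3, reproductive 1 or reproductive 2, 2 were higher in each case, and 1, 2 and 1 were lower. SULF1, which removes sulfate from finished chains outside the cell, fell from 10.3 ± 3.49 to 2.48 ± 0.800 FPKM (SD, n = 3), a difference of -1.69 ± 0.27 (SE; adjusted p = 0.0132). B4GALT7, which builds the linker between protein and chain, rose by 0.81 ± 0.18, and HS3ST5, which adds sulfate to the chain, rose by 0.90 ± 0.20 (adjusted p = 0.0182 and 0.0184).

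Other components of the basement membrane included 10 lower and 2 higher genes among 18 tested, with a median of -0.66. This was 55.6% lower and 11.1% higher, against 12.0% and 29.9% of all tested genes. With the top transcript in place of the gene sum 4 of 17 were lower and 2 higher, and without reproductive 1 there were 7 lower and 1 higher. SPARC, a collagen-binding glycoprotein, fell from 393 ± 21.9 to 109 ± 44.5 FPKM (SD, n = 3; difference -1.92 ± 0.29, adjusted p = 0.0126). FBLN1, the laminin- and nidogen-binding protein fibulin 1, fell by 1.40 ± 0.23, and PXDN, the peroxidase that cross-links collagen IV, fell by 1.36 ± 0.24. For FBLN1 the top transcript alone gave -2.27 and missed the threshold (adjusted p = 0.0553). NTN4, netrin 4, which binds laminin gamma chains and was named after its values were seen, rose from 17.0 ± 3.28 to 28.6 ± 3.96 FPKM (difference 0.72 ± 0.18, adjusted p = 0.0212). That call ended without reproductive 1 (adjusted p = 0.0527).

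**Figure D5:**
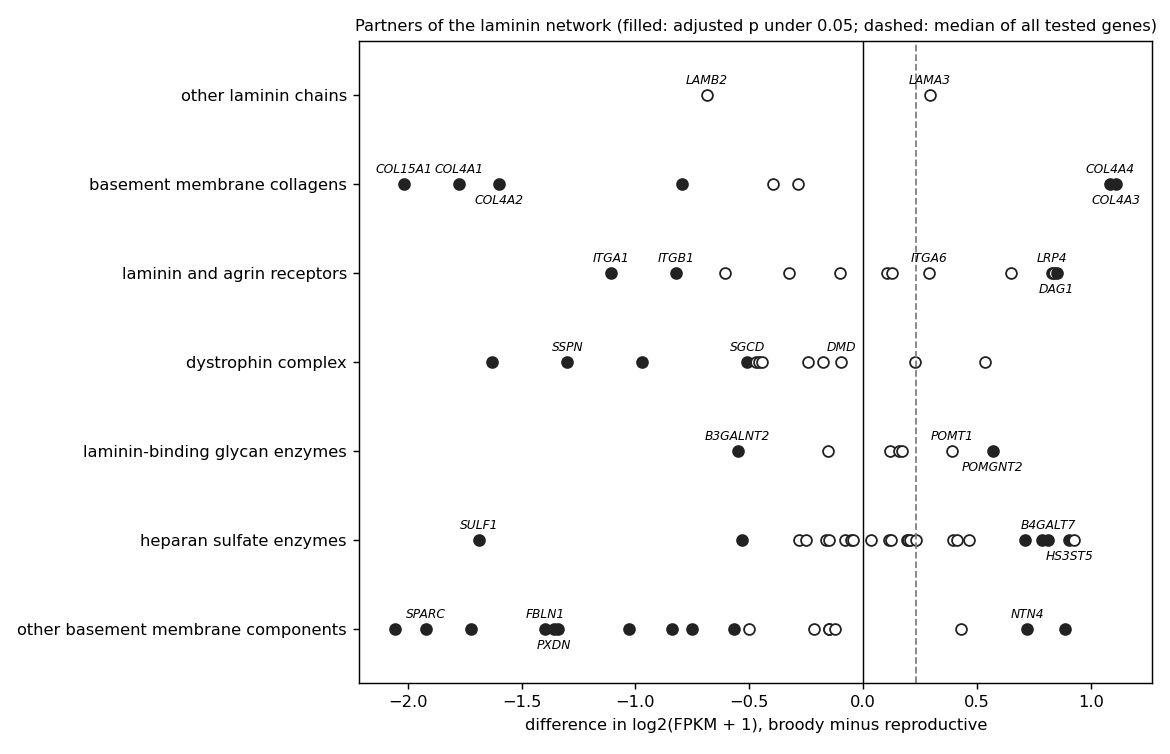
Difference in log2(FPKM + 1), broody minus reproductive, of the 83 tested partner genes by list. Filled points are genes called by limma, and the genes named in the text are labelled, except COL4A5. The dashed line is the median of all tested genes, 0.23. COL4A3, COL4A4, DAG1, LRP4 and NTN4 lie to the right of it, and COL4A1, COL4A2, COL15A1, ITGB1, SULF1 and SPARC lie far to its left.

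Among the 10274 named tested genes, those with the profile most like a member over the 6 libraries were found by the same root mean square difference on the log2 scale. For LAMA1 they were POLDIP2, PLEKHA3 and SH3RF3, at 0.04 each, and POLDIP2 averaged 134 FPKM in broody and 61.2 FPKM in reproductive libraries. For AGRN they were DCBLD1, MRPL23 and KCNH1, at 0.05 each. For LAMA4 they were SCUBE2, TNS1 and SULF1, the last a partner gene above, at 0.11, 0.12 and 0.12. For LAMB1 they were FSTL1, PRSS23 and EDNRA, at 0.06, 0.10 and 0.13, for NID1 CCN4, FKBP10 and MMRN2, at 0.05, 0.12 and 0.12, and for HSPG2 LRRC32, CCDC50 and MN1, at 0.04, 0.08 and 0.08. For LAMA2 they were SVEP1, ADIPOQ and C7, at 0.10 to 0.14, and for LAMC1 TRIL, DNALI1 and GLI3, at 0.05 to 0.07. LAMA5 was nearest to TSKU, DNALI1 and HGF, at 0.07 to 0.08, and NID2 to USE1, PCNXL4 and RNF144B, at 0.08 to 0.09.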

How the data were processed

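Per the labels' protocols, Trizol was used to extract RNA from frozen ovary, and the libraries were built with a TruSeq RNA kit (Illumina). The authors deposited FPKM for 33089 transcripts in 6 libraries. Per the submitters' processing notes, HISAT2 and StringTie were used, with no version stated. The genome build, the annotation release and the strand setting are not stated there; coordinates are left out, and overlapping or antisense genes cannot be separated. No read counts were recovered and no count model was used.

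FPKM were summed per gene identifier. Names came from the deposited table for 6611 genes and from a reference table of Taihu_goose_T2T_genome for 5742 more; 13873 identifiers occurred in it. At most 0.00718% of the values above 0 were identical between any 2 libraries. Genes with at least 1 FPKM in 3 or more libraries were fitted as log2(FPKM + 1) with limma 3.58.1 in R 4.3.3 (lmFit, eBayes with a mean-variance trend, no covariate), adjusted by Benjamini-Hochberg over all genes tested, at 0.05. Transcripts were fitted likewise. The fit was tested on simulated data. Members, lists and tests were chosen with earlier results of these data known. Besides the members, the text names 11 fixed partner genes where tested, up to 3 genes of each partner list with the smallest p, and the 3 genes most like each member; others are said to be so, and some genes that the rule takes in are not reported here. Alternatives covered the pseudocount, filter, scaling, fit, replicate block, transcript choice, threshold and each library left out.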

Additional observations from a re-analysis of the deposited data

How the results depend on the processing

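The 6 called members kept their direction under all 18 alternatives, with differences of 0.92 to 1.32 for LAMA1, 0.39 to 0.75 for AGRN, -1.88 to -1.29 for LAMA4, -1.73 to -1.11 for LAMB1, -1.63 to -1.13 for NID1 and -1.56 to -1.04 for HSPG2. Their groups do not overlap, so leaving out a library could not turn their sign in FPKM. The other filters, the replicate block, the fit without a mean-variance trend and the other threshold leave the difference itself unchanged. So does the top transcript for members with 1 transcript. These settings could not turn a direction either. With 1 library left out in turn, 0 to 5 members were lower and 0 to 2 higher, 0 to 19 partner genes lower and 0 to 13 higher, and 0 to 2 member transcripts lower and 0 to 1 higher. Of all tested genes 0.00879 to 10.8% were lower and 0 to 33.1% higher in these fits. Of all tested transcripts 0.0987 to 4.19% were lower and 0.171 to 14.1% higher. Members called higher were 1 with median-ratio and 1 with upper-quartile scaling. At a threshold of 0.01 for the adjusted p, 0 members and 0 partner genes were called in either direction by limma, where 0.158% of all genes were called. At an unadjusted p under 0.05, 2 members were higher and 4 lower. Of the 83 tested partner genes 17 were higher and 25 lower by that rule. It was met by 6124 of all 11377 tested genes in either direction. With the top transcript in place of the gene sum 13 of 81 partner genes were lower, where 8.7% of all genes were. With a pseudocount of 0.1, and with a filter on a mean of 1 FPKM, 0 member transcripts were lower, where 2.34% and 2.2% of all transcripts were. With LAMA3 included, the LAMA1 share differed by 26.3 percentage points, against 35.3 with 4 chains. DMD, not called, turned from -0.10 to 0.000251 with array weights. The cause of these shifts was not tested. With the replicate number as a block, members were 1 higher (AGRN missed, adjusted p = 0.0568) and 4 lower, where 19.6% of all genes were higher and 8.33% lower. Partner genes were 8 higher and 17 lower, the latter with 2 of the dystrophin complex and 8 of the other basement membrane components. Among the partner genes named above as higher, NTN4 (adjusted p = 0.0532) and POMGNT2 missed. Member transcripts were 0 higher and 0 lower, where 2 of all 15191 transcripts tested were called. An unadjusted p under 0.05 was reached by 7 member transcripts and by 4869 of all. Same-numbered libraries deviated together with r = 0.11, -0.16 and -0.20, and not every library correlated best with its own number, so the numbers were not taken to pair the libraries. Depth is unknown, and 3 libraries per group limit the precision.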
